A study of Rattus norvegicus with 6 samples.

Results

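Amino acids that pass the glomerular filter are recovered by the proximal tubule of the renal cortex, and 10 genes of that recovery are described here: Slc3a1, Slc7a9, Slc7a13, Slc7a7, Slc7a8, Slc6a19, Slc6a18, Slc6a20, Slc1a1 and Slc6a6. They were chosen by name, as transporters known from this segment, and a probe counted as theirs where its accession led to that gene in the RefSeq gene table. All 10 were found among the 15284 genes named on the array, by 17 probes, and each of the 17 was well above background on all 6 arrays. Slc6a20 stands in that table as Slc6a20a, with the older symbol as a synonym.

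The renal cortex was taken from 6 male rats of the outbred Sprague-Dawley stock (Crl:CD(SD)), purchased at an age of 5 weeks and kept on a basal diet. Corn oil, the vehicle, was given to 3 of them over 4 weeks, and the other 3 received tris(2-chloroethyl)phosphate (TCEP), an organophosphate flame retardant, at 400 mg/kg/day for 4 weeks. Each rat is 1 single-colour Agilent array. The cortex was measured in bulk, so fewer cells of a type and less RNA per cell cannot be told apart. A level is the log2 processed signal minus the log2 75th percentile of the array, and probes differ in how strongly they hybridise, so levels of different genes are not ranked. A difference is the TCEP mean minus the vehicle mean of that level, and the value after ± is the SD of a group (n = 3).

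Of 61657 probes that are no controls, 67.2% to 69.3% exceeded background clearly, depending on the array. The 3 vehicle arrays lay on slide 1 and the 3 TCEP arrays on slide 2, so slide and treatment cannot be told apart in any difference given here. The 12 markers of the proximal tubule that were listed, among them the endocytic receptor genes Lrp2 and Cubn and the phosphate transporter gene Slc34a1, were all measured. Their mean, relative to each gene's own mean, lay between -0.05 and 0.03 on the vehicle arrays and between -0.17 and 0.14 on the TCEP arrays.

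Recovery of an amino acid takes a carrier on the brush border, which faces the urine, and another on the basolateral side, which faces the blood. Several carriers work as a pair of proteins, a heavy chain that brings the complex to the membrane and a light chain that moves the amino acid. The heavy chain rBAT (Slc3a1) serves the brush border, and the heavy chain 4F2hc (Slc3a2) the basolateral side. Loss of rBAT or of its light chain Slc7a9 causes cystinuria, and loss of the neutral carrier Slc6a19 causes Hartnup disorder.

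Many proximal tubule genes are under HNF1 factors, which bind a palindrome. DNA before a listed start of 2 of these genes is shown because it holds that palindrome with 2 mismatches. The RefSeq promoter table (GRCr8) held 300-base windows, from 250 bases before to 50 bases after a start, for 8 of the 10 genes. The first window listed for each of these genes was used. The motif searched was the half-site GTTAAT, any 1 base and the reverse complement ATTAAC, which reads the same on both strands, with up to 2 mismatches at its 12 fixed letters. It was found in 2 of the 8 windows, those of Slc6a18 and Slc7a9, and in 1.19% of all 33469 windows. In the sequences, read 5′ to 3′ on the plus strand, capitals mark the match.
Slc6a18: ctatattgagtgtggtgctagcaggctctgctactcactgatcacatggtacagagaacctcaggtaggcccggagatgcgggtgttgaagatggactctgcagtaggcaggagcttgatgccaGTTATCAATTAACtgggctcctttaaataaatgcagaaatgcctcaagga
Slc7a9: gatgggtgTTTAATAATTACCtctgttgac
The Slc6a18 stretch is chr1:31436403-31436576, and its match lies 126 to 114 bases before the start given in the table. The Slc7a9 stretch is chr1:97246699-97246728, with the match 175 to 163 bases before that start. It lies inside the outer bounds that the RefSeq gene table gives for Slc7a9. A match is a resemblance of letters, and binding was not measured. These genes stood at opposite ends on 1 array, since Slc6a18 was highest, and Slc7a9 lowest, on TCEP replicate 1.

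None of the 10 transporter genes differed between TCEP and vehicle rats beyond the spread between rats (limma, Benjamini-Hochberg adjusted p under 0.05). The adjusted p lay between 0.691 and 0.966. That is 0 of 10 members, beside 0 of 11804 genes tested (0%), and at an unadjusted p under 0.05 it is 0 of 10, beside 983 genes (8.33%). The TCEP and vehicle arrays were free of overlap for 0 of 10 members, beside 15.6% of all genes (8.63% with the TCEP arrays above and 6.97% with them below). The TCEP mean was higher for 7 members and lower for 3, with a median difference of 0.13, beside 52.5% higher and a median of 0.01 over all genes tested.

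**Figure D1:**
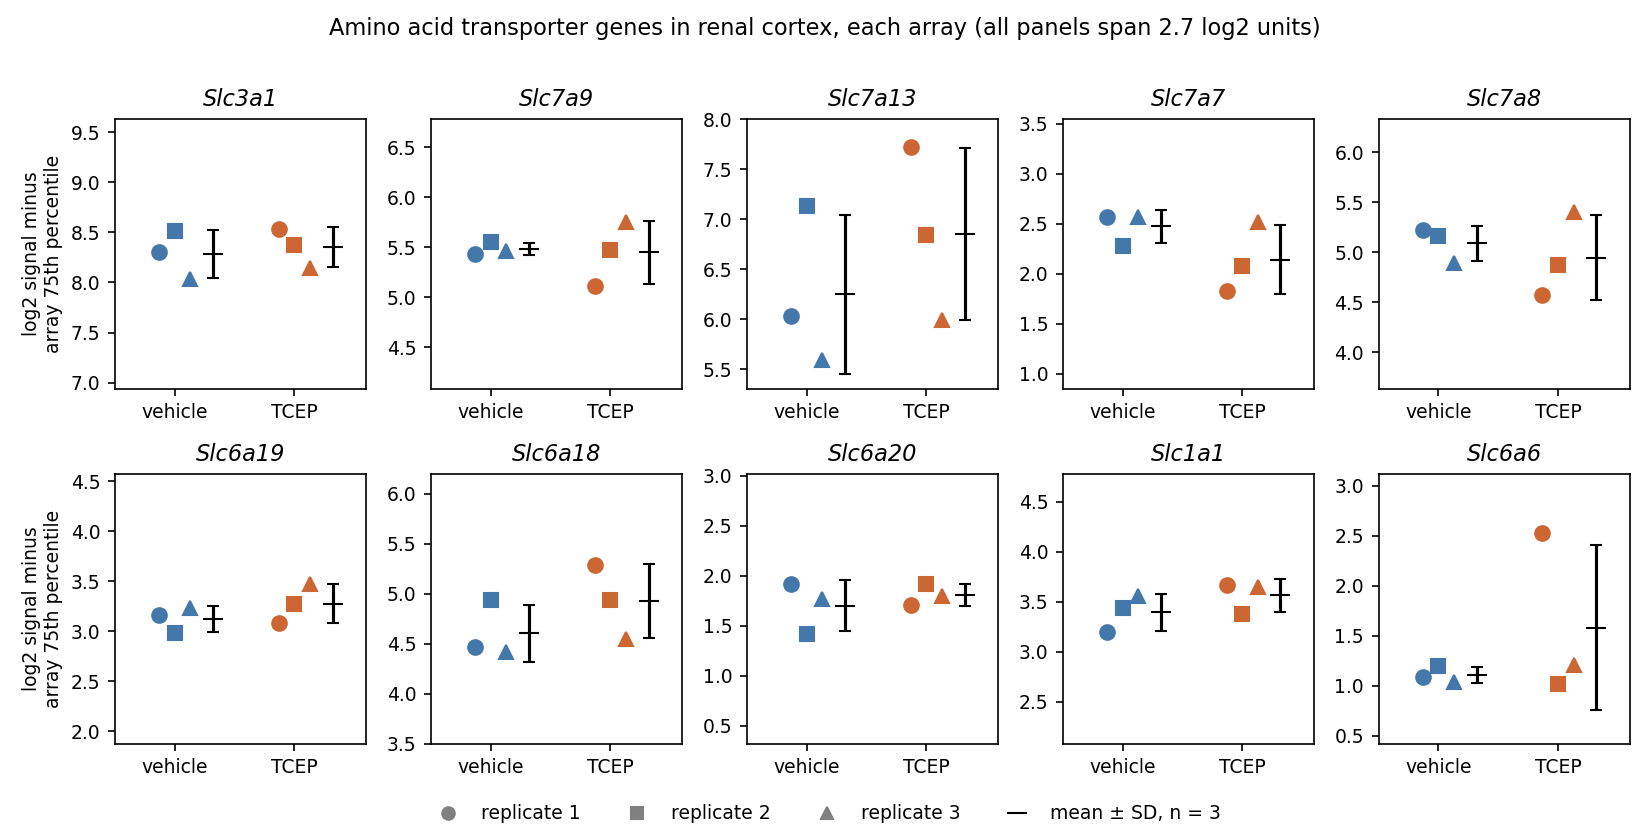
Level of each transporter gene on each array, as log2 signal minus the 75th percentile of the array, for vehicle (blue) and TCEP (orange), with the marker shape giving the replicate number and the black bar the mean ± SD (n = 3). Vehicle and TCEP arrays overlap in all 10 panels, Slc7a13 spreads over 2.13 log2 units, and Slc6a6 is high on TCEP replicate 1 alone.

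Slc3a1, the heavy chain of the brush border, was at 8.31, 8.51 and 8.04 on vehicle replicates 1 to 3 and at 8.54, 8.37 and 8.14 on TCEP replicates 1 to 3. Each group held a high and a low array, and the groups overlapped. The means were 8.29 ± 0.24 and 8.35 ± 0.20, a difference of 0.06 (SE 0.16, 95% confidence interval -0.32 to 0.45, adjusted p = 0.931). The sign turned without vehicle replicate 3 (-0.06) or TCEP replicate 1 (-0.03).

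Slc7a9 encodes b0,+AT, the light chain that pairs with rBAT to take up cystine and the dibasic amino acids. Its levels were 5.44, 5.55 and 5.46 on the vehicle arrays and 5.12, 5.47 and 5.75 on the TCEP arrays. The vehicle arrays were close together and lay inside the range of the TCEP arrays. The means of 5.48 ± 0.06 and 5.45 ± 0.32 gave a difference of -0.04 (SE 0.16, 95% confidence interval -0.44 to 0.37, adjusted p = 0.966). Without TCEP replicate 1 the difference was 0.13.

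Slc7a13 encodes AGT1, the other light chain of rBAT, which carries cystine and acidic amino acids in the straight part of the proximal tubule. It was at 6.03, 7.13 and 5.59 on the vehicle arrays and at 7.72, 6.84 and 6.0 on the TCEP arrays. TCEP replicate 1 and vehicle replicate 2 were the highest and vehicle replicate 3 the lowest, and TCEP replicate 3 was level with vehicle replicate 1. The highest array was 4.36-fold above the lowest. The means were 6.25 ± 0.79 and 6.85 ± 0.86, a difference of 0.60 (SE 0.56, 95% confidence interval -0.77 to 1.97, adjusted p = 0.792). Single arrays set its size, which was 0.17 without TCEP replicate 1 and 0.27 without vehicle replicate 3. It was 1.03 once TCEP replicate 3, and 1.04 once vehicle replicate 2, was left out.

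The basolateral carriers had lower means with TCEP, and neither passed the test. Slc7a7 encodes y+LAT1, which releases dibasic amino acids to the blood. It was at 2.57, 2.28 and 2.57 on the vehicle arrays and at 1.83, 2.08 and 2.52 on the TCEP arrays. TCEP replicates 1 and 2 lay below every vehicle array, while TCEP replicate 3 lay among them. The means were 2.47 ± 0.17 and 2.14 ± 0.35, a difference of -0.33 (SE 0.19, 95% confidence interval -0.80 to 0.14, adjusted p = 0.691, the smallest of the 10). It was -0.17 without TCEP replicate 1 and -0.52 without TCEP replicate 3. Slc7a7 is also known from macrophages, whose 5 measured markers had a list mean between -0.16 and 0.33 on vehicle and between -0.17 and -0.01 on TCEP arrays, and their part in the difference was not tested.

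Slc7a8 encodes LAT2, an exchanger of neutral amino acids. It was at 5.22, 5.16 and 4.89 on the vehicle arrays and at 4.57, 4.87 and 5.40 on the TCEP arrays, which held both the lowest and the highest value. The means were 5.09 ± 0.18 and 4.95 ± 0.42, a difference of -0.14 (SE 0.22, 95% confidence interval -0.69 to 0.40, adjusted p = 0.882). The difference was 0.05 without TCEP replicate 1, -0.24 without vehicle replicate 3 and -0.37 without TCEP replicate 3. Slc3a2, the heavy chain that Slc7a7 and Slc7a8 share, was at 4.32, 4.19 and 4.25 on the vehicle and 3.79, 4.13 and 4.36 on the TCEP arrays. Like Slc7a8 it was lowest on TCEP replicate 1 and highest on TCEP replicate 3, and its difference was -0.16 (SE 0.15, adjusted p = 0.787).

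The sodium-driven carriers of the Slc6 family had higher means with TCEP, again without passing the test. Slc6a19 encodes B0AT1, the main brush border carrier of neutral amino acids. It was at 3.16, 2.98 and 3.23 on the vehicle arrays and at 3.08, 3.27 and 3.47 on the TCEP arrays. TCEP replicates 2 and 3 lay above every vehicle array and TCEP replicate 1 below 2 of them. The means were 3.13 ± 0.13 and 3.27 ± 0.20, a difference of 0.15 (SE 0.12, 95% confidence interval -0.16 to 0.45, adjusted p = 0.773). It was 0.25 without TCEP replicate 1, 0.08 without vehicle replicate 2 and 0.05 without TCEP replicate 3.

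Slc6a18 encodes B0AT3, a related carrier of glycine and other neutral amino acids in the later proximal tubule. It was at 4.46, 4.93 and 4.41 on the vehicle arrays and at 5.29, 4.93 and 4.55 on the TCEP arrays. TCEP replicate 1 was highest, vehicle replicate 2 and TCEP replicate 2 were level, and the other 3 arrays were low. The means were 4.60 ± 0.29 and 4.92 ± 0.37, a difference of 0.32 (SE 0.23, 95% confidence interval -0.24 to 0.88, adjusted p = 0.743). It was 0.14 without TCEP replicate 1, 0.48 without vehicle replicate 2 and 0.51 without TCEP replicate 3.

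In the kidney both Slc6a19 and Slc6a18 need the partner protein collectrin (Cltrn) to reach the membrane. Cltrn was at 7.61, 7.57 and 7.59 on the vehicle and 7.30, 7.69 and 7.66 on the TCEP arrays, with a difference of -0.04 (SE 0.12, adjusted p = 0.948). TCEP replicate 1 alone stood below the rest. The dimmer Cltrn probe gave 0.04 (SE 0.15), so the sign depends on the probe. Slc6a18 was highest on that array, where Cltrn was lowest.

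Slc6a20 encodes SIT1, the carrier of proline and other imino acids. Its brighter probe was at 1.92, 1.42 and 1.76 on the vehicle arrays and at 1.70, 1.92 and 1.80 on the TCEP arrays. The TCEP arrays lay inside the vehicle range. The means were 1.70 ± 0.26 and 1.81 ± 0.11, a difference of 0.10 (SE 0.14, 95% confidence interval -0.24 to 0.45, adjusted p = 0.865). The result rested on vehicle replicate 2, without which the difference was -0.04. The dimmer probe was at -1.65, -1.94 and -1.74 on the vehicle and -1.20, -1.51 and -1.69 on the TCEP arrays, which gave 0.31 (SE 0.15, limma adjusted p = 0.641 over 41040 detected probes). The probes disagreed on TCEP replicate 1, which was highest on the dimmer probe and next to lowest on the brighter probe.

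Slc1a1 encodes EAAT3, the brush border carrier of glutamate and aspartate. It was at 3.20, 3.44 and 3.56 on the vehicle arrays and at 3.67, 3.38 and 3.65 on the TCEP arrays. TCEP replicates 1 and 3 lay above every vehicle array, and TCEP replicate 2 lay among them. The means were 3.40 ± 0.18 and 3.57 ± 0.16, a difference of 0.17 (SE 0.13, 95% confidence interval -0.14 to 0.49, adjusted p = 0.751). It was 0.07 without vehicle replicate 1 and 0.27 without TCEP replicate 2.

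Slc6a6 encodes TauT, the taurine transporter, which is made in many tissues besides the proximal tubule. It was at 1.09, 1.19 and 1.03 on the vehicle arrays and at 2.52, 1.02 and 1.20 on the TCEP arrays. The other 5 arrays lay between 1.02 and 1.20, and TCEP replicate 1 was 2.50-fold above the highest of them. The dimmer probe showed the same array apart, at -0.07 against -1.56 to -1.21, a gap of 2.20-fold. The means were 1.1 ± 0.08 and 1.58 ± 0.82, a difference of 0.48 (SE 0.40, 95% confidence interval -0.49 to 1.45, adjusted p = 0.772). The difference was 0.0039 without TCEP replicate 1, 0.76 without TCEP replicate 2 and 0.21 with array weights.

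**Figure D2:**
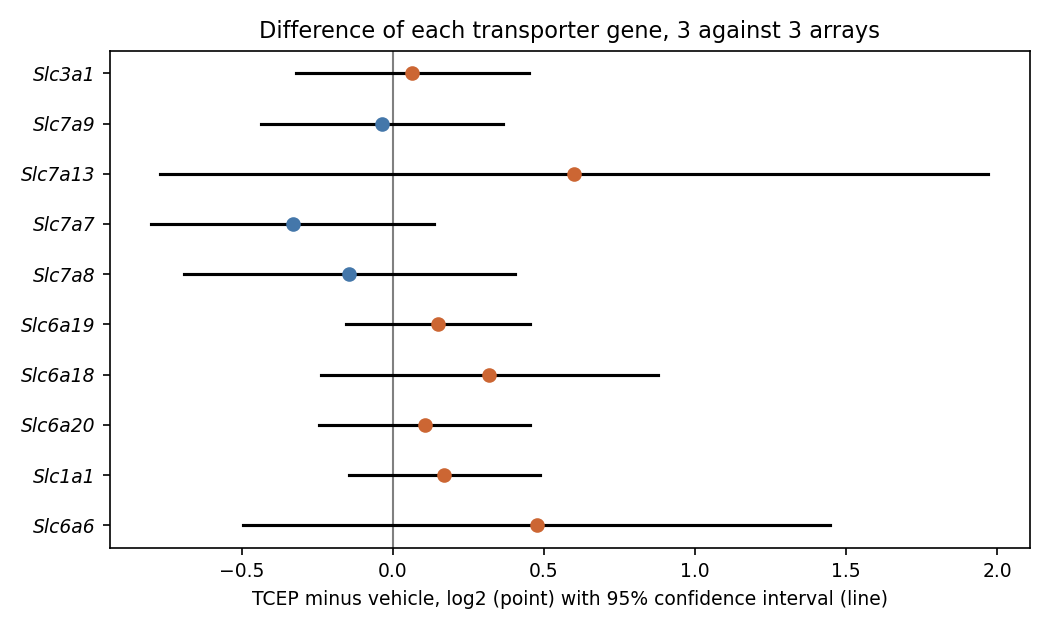
Difference of each transporter gene, TCEP minus vehicle on the log2 scale (points), with its 95% confidence interval from limma's moderated fit of 3 against 3 arrays (lines). All 10 intervals include 0, and the widest, that of Slc7a13, runs from -0.77 to 1.97.

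The intervals set what these arrays could show for each gene. They were narrowest for Slc6a19 and Slc1a1, which had the smallest residual SD, 0.17 for each, beside a median of 0.13 over all genes tested. Slc7a13 had the largest, 0.83, at the 98.6th percentile of all genes, and Slc6a6 followed with 0.58, at the 96.2nd percentile. All 10 members had a residual SD above that median, and the median over the members was 0.25. The SD was larger among TCEP than among vehicle arrays for 7 of 10 members, beside 51.9% of all genes.

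TCEP replicate 1 was the highest or the lowest of the 6 arrays for 8 of 10 members, beside 42.2% of all genes. It was highest for Slc3a1, Slc7a13, Slc6a18, Slc1a1 and Slc6a6, beside 19.3% of all genes. It was lowest for Slc7a9, Slc7a7 and Slc7a8, 3 of 10 members, beside 22.9% of all genes. Slc3a1, Slc7a13 and Slc6a18 shared both ends, with TCEP replicate 1 highest and vehicle replicate 3 lowest, a pattern held by 6.77% of all genes. In each of these 3 genes vehicle replicate 2 stood above vehicle replicates 1 and 3. The light chains of rBAT therefore ran apart, since from TCEP replicate 1 to TCEP replicate 3 Slc7a13 went from 7.72 to 6.0 and Slc7a9 from 5.12 to 5.75.

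**Figure D3:**
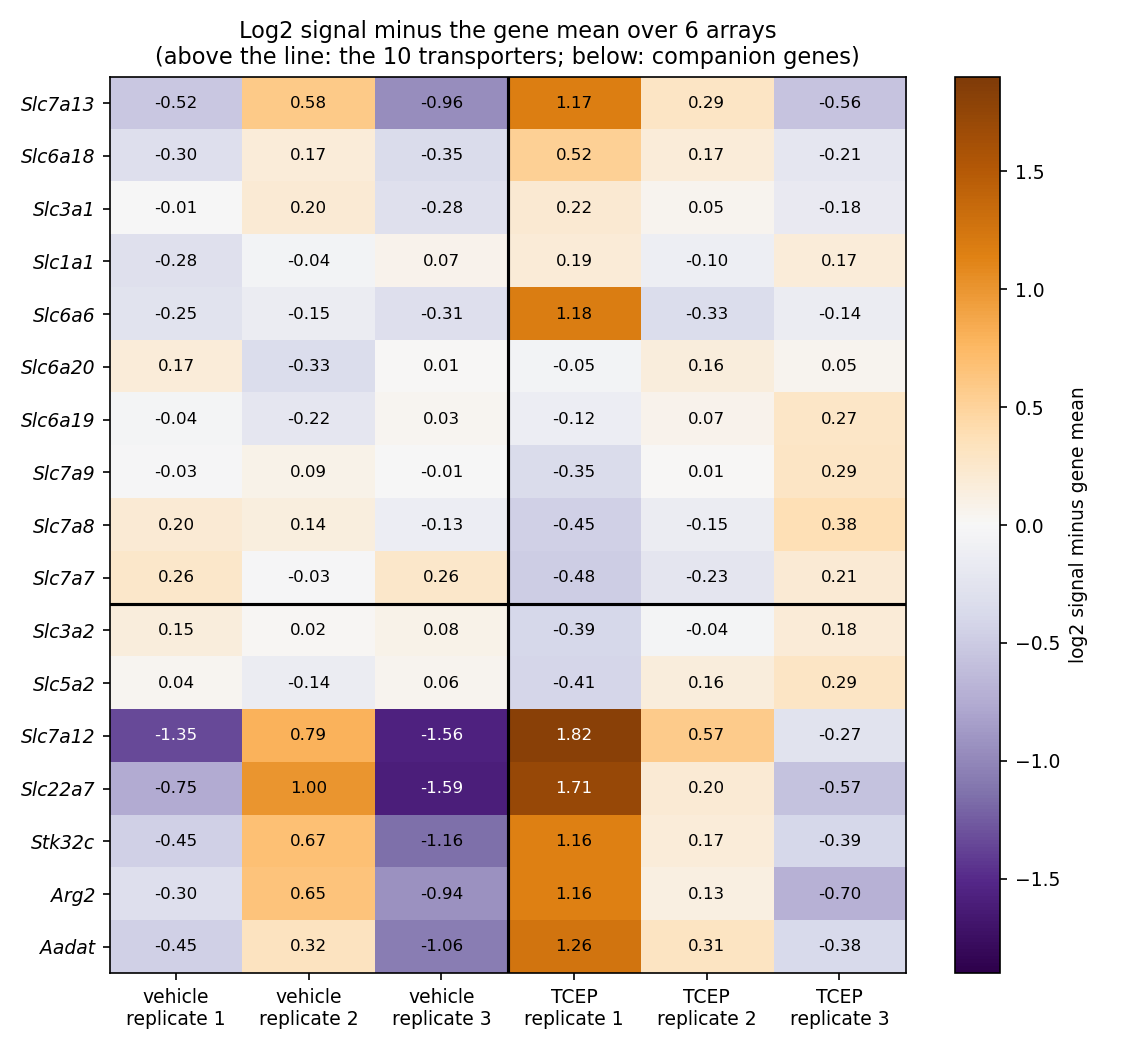
Log2 signal minus the gene's mean over the 6 arrays, as colour and number, for the 10 transporters (above the line) and 7 companion genes (below it), with the vehicle arrays left of the vertical line. Slc7a13, Slc6a18 and Slc3a1 are highest on TCEP replicate 1 and lowest on vehicle replicate 3, as are Slc7a12, Slc22a7, Stk32c, Arg2 and Aadat. Slc7a9, Slc7a8, Slc7a7, Slc3a2 and Slc5a2 are lowest on TCEP replicate 1, as are 22.9% of all genes tested. Stk32c, Arg2 and Aadat were picked for the likeness of their profiles to that of Slc7a13.

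The genes most like Slc7a13, the member with the widest range, were sought over the 6 arrays by the root mean square distance between profiles centred on each gene's mean. The nearest 3 of 11803 genes were the kinase gene Stk32c (distance 0.125), the mitochondrial arginase gene Arg2 (0.130) and the aminoadipate aminotransferase gene Aadat (0.143). The median distance over all genes was 0.755. Profiles were not scaled to a common range, so a gene that hardly varies is also distant, and that median is no yardstick for likeness of shape. Aadat was at 5.22, 5.99 and 4.61 on the vehicle and 6.93, 5.98 and 5.29 on the TCEP arrays. Arg2 was at 0.48, 1.43 and -0.15 on the vehicle and 1.94, 0.91 and 0.08 on the TCEP arrays. Both have TCEP replicate 1 highest and vehicle replicate 3 lowest, like Slc7a13, which largely follows from their choice by likeness. Among the members, Slc6a18 was nearest, at 0.435.

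The mean of 4 listed markers of the straight proximal tubule was high on the same arrays as Slc7a13, at 0.46 on TCEP replicate 1 and 0.45 on vehicle replicate 2, and low at -0.37 on TCEP replicate 3 and -0.35 on vehicle replicate 3. On TCEP replicate 1 that mean came mainly from 1 gene, the organic anion transporter gene Slc22a7, which stood 1.71 above its own mean. Slc22a7 had the profile of Slc7a13, at -1.27, 0.48 and -2.11 on the vehicle and 1.19, -0.32 and -1.09 on the TCEP arrays. The glucose transporter gene Slc5a1 ranged from -1.59 to -1.37 on the vehicle and from -1.79 to -1.44 on the TCEP arrays. The monocarboxylate transporter gene Slc5a8 was between 1.27 and 1.43 on vehicle and between 0.71 and 0.99 on TCEP arrays, without overlap (adjusted p = 0.533). The organic anion transporter gene Slc22a13 was between -2.57 and -2.19 on vehicle and between -2.74 and -2.07 on TCEP arrays. It too was highest on TCEP replicate 1, whereas Slc5a1 and Slc5a8 were highest on vehicle replicate 2. Slc5a2, the glucose transporter of the early proximal tubule, was at 7.33, 7.15 and 7.34 on the vehicle and 6.88, 7.45 and 7.58 on the TCEP arrays. Like Slc7a8 and Slc3a2, it was lowest on TCEP replicate 1 and highest on TCEP replicate 3. The mean of the 12 proximal tubule markers, to which Slc5a2 belongs, had the same ends, at -0.17 on TCEP replicate 1 and 0.14 on TCEP replicate 3, as did Slc7a9. Of the 12 markers, Lrp2, Slc5a2 and Slc22a8 alone had both ends. Slc34a1, Slc5a12, Slc13a3 and Slc4a4 were lowest on TCEP replicate 1 but highest on other arrays. Cubn and Hnf4a were lowest on TCEP replicate 2, and Slc22a6 and Pdzk1 on vehicle replicate 2. Aqp1 went the other way, highest on TCEP replicate 1. What part the share of each segment in the dissected cortex had in these profiles was not tested.

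Several probes stood for 6 of the members, and the sign of the difference was the same for all probes of each of the 6. The probes of Slc7a13 gave 0.60 and 0.59, those of Slc7a8 -0.14 and -0.15, those of Slc6a18 0.32, 0.36 and 0.25, those of Slc6a6 0.48 and 0.39 and those of Slc3a1 0.06 and 0.16. Both probes of Slc7a13 put TCEP replicate 1 highest and vehicle replicate 3 lowest, as did both of Slc3a1 and all 3 of Slc6a18. Slc7a9, Slc7a7, Slc6a19 and Slc1a1 had 1 probe each, and their profiles have no such check.

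**Figure D4:**
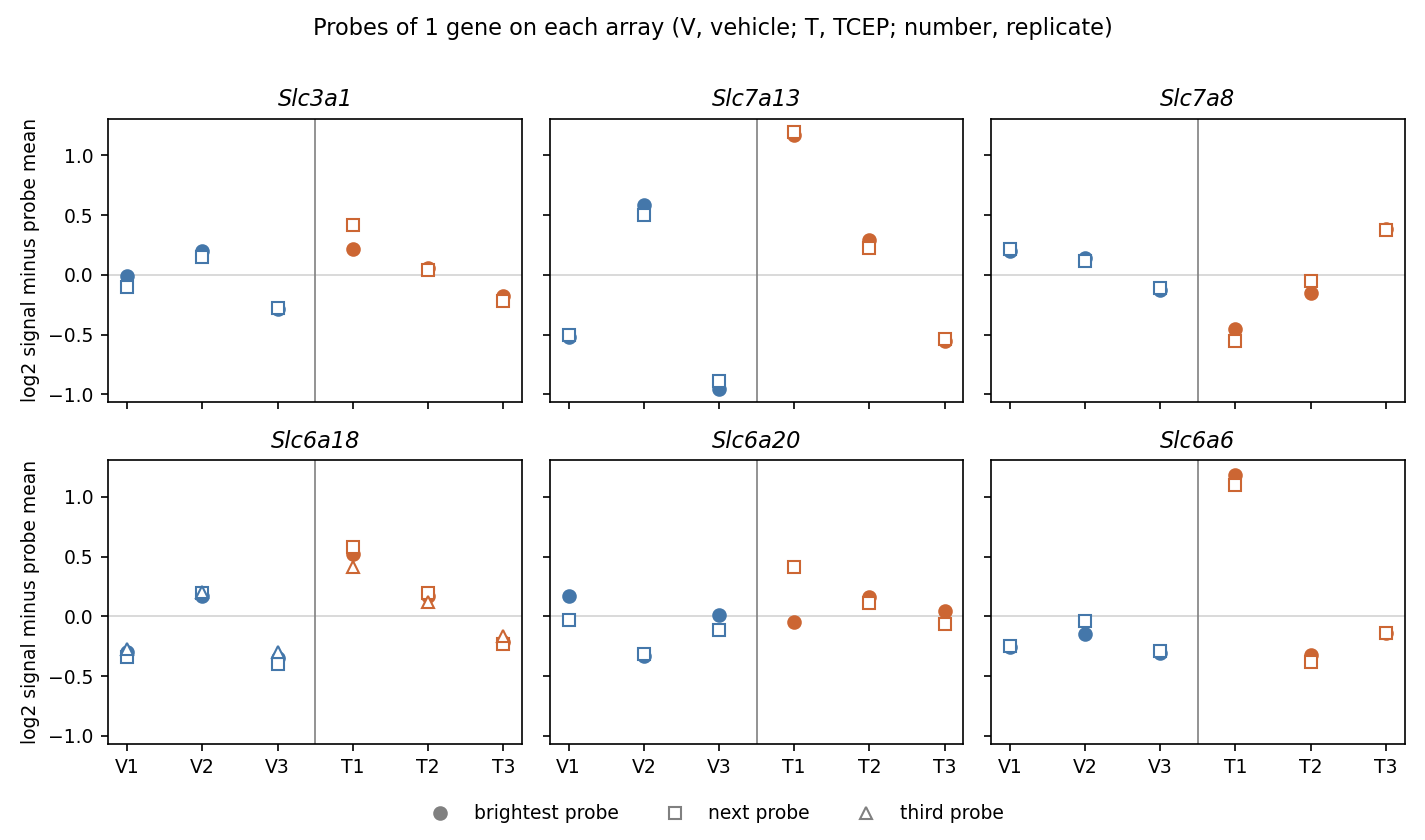
Log2 signal minus the probe's mean over the 6 arrays for the 6 members with several probes, on vehicle (blue, V) and TCEP (orange, T) arrays, with filled circles for the brightest probe and open symbols for the others. The probes of Slc7a13, Slc7a8 and Slc6a6 nearly coincide on every array, and those of Slc6a20 part on TCEP replicate 1.

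Of 26 other genes of amino acid and peptide transport, 25 had a named probe and 18 were tested, and 0 were called in either direction. 7 had higher and 11 lower means, with a median difference of -0.03, beside 0.01 over all genes tested. The median of the list turned sign with no filter on dim probes and with no scaling. No scaling moves every difference by the same amount, and there the list stood at 0.0093, beside 0.050 over all genes. Slc7a12, a related light chain gene, was at -0.14, 2.00 and -0.35 on the vehicle and 3.03, 1.78 and 0.94 on the TCEP arrays. Its difference was 1.41 (SE 0.79, adjusted p = 0.690), and its highest and lowest arrays were those of Slc7a13. The glutamate transporter gene Slc1a3 differed by -0.69 (SE 0.25, adjusted p = 0.566) and the neutral carrier gene Slc43a1 by -0.24 (SE 0.09, adjusted p = 0.582). In both the highest TCEP array was below the lowest vehicle array. That held for 3 of the 18 genes tested, beside 6.97% of all genes, and the reverse for 0, beside 8.63%. In either direction 16.7% of the list was free of overlap, beside 15.6% of all genes. Slc7a6, the other y+L light chain, differed by -0.28 (SE 0.17, adjusted p = 0.710).

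Of 21 enzymes that use or make amino acids, 20 were tested and 0 were called, 8 with higher and 12 with lower means (median -0.01). The tyrosine catabolism gene Hgd differed by 0.35 (SE 0.14, adjusted p = 0.592), the aminotransferase genes Agxt2 and Got1 by -0.24 (SE 0.12, adjusted p = 0.651) and -0.14 (SE 0.08, adjusted p = 0.688), and the proline catabolism gene Aldh4a1 by 0.09 (SE 0.06, adjusted p = 0.744). These 4 were named for the smallest p of the list. Over the whole list the vehicle and TCEP arrays did not overlap for 3 of 20 genes (15.0%), beside 15.6% of all genes. The split between higher and lower means turned with single arrays: 13 of 20 were higher without vehicle replicate 1 or without TCEP replicate 1, and 5 of 20 without TCEP replicate 3.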

How the data were processed

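Scanner output was made by the authors with Agilent Feature Extraction 10.7.1.1, per the file headers (10.7 per the submitters' processing notes). The processed signal deposited there is an intensity, background-subtracted and detrended within the array and not scaled between arrays. The deposited series matrix values are that intensity divided by a constant per array within 0.146% of its 75th percentile. The files' flags for outliers and for signal well above background, deposited as other values of 0 or 1, were used as given. The number of arrays, 3 a group, limits the precision. The series' design text calls the 3 samples of a group biological replicates.

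12 probes marked as outliers were left out. Probes were named by accession through a RefSeq table (GRCr8, names only), and 27453 of them matched (44.5%). A gene was represented by its brightest probe and tested if every array of vehicle, of TCEP or of both showed this probe well above background (11804 genes). TCEP was tested against vehicle by limma 3.58.1 under R 4.3.3 (lmFit, eBayes, two-sided, Benjamini-Hochberg over all genes). The code was tested on simulated data. Figures were drawn with matplotlib 3.10.9 under Python 3.11.15.

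The members and lists were chosen with earlier results of these data known. Named genes were the 10 members, Slc3a2, Cltrn, the 4 smallest p of both further lists and the 3 profiles nearest to the widest-ranging member; other genes are markers or are said to be chosen later. 1 gene planned for the transport list was left out of it and is not analysed here. Markers of other cell types (thick limb, distal tubule, principal and intercalated cells, podocytes, endothelium, neutrophils and erythroid cells, lymphocytes, fat) were listed and are given in the closing section. Each array was left out in turn, and scaling, background correction, filter, probe summary, replicate block, variance model and array weights were varied. Normexp, planned on mean spot signals, used median ones.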

Additional observations from a re-analysis of the deposited data

How the results depend on the processing

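Over the 17 alternative settings 0 members were called, and the number with a higher TCEP mean was 7 or 8 with all arrays and 6 to 8 without each array in turn. The median over the members ran from 0.11 to 0.17 with all arrays and from 0.10 to 0.17 without each array. Of 177 alternative values of single members 169 kept their sign, and 6 of 10 members kept it throughout. Some of the 177 could not turn. The filters, the replicate block and the variance model leave a member's difference as it is, as does the probe mean for single-probe members. Slc6a6 counts as kept at 0.0039 without TCEP replicate 1. The 8 that turned were Slc7a9 with no scaling (0.0068), normexp (0.056), array weights (0.019) and without TCEP replicate 1 (0.13), Slc3a1 without vehicle replicate 3 (-0.061) and without TCEP replicate 1 (-0.03), Slc7a8 without TCEP replicate 1 (0.046) and Slc6a20 without vehicle replicate 2 (-0.036). No scaling moves the difference of every gene by the same amount, and the median over all genes was 0.050 there, beside 0.01. The cause of the other turns was not tested. Without each array in turn Slc7a9 ran from -0.19 to 0.13, Slc3a1 from -0.061 to 0.18, Slc7a8 from -0.37 to 0.046 and Slc6a20 from -0.036 to 0.21. Over all genes 0 to 1 was called without each array, the 1 being Dio2 without TCEP replicate 3 (adjusted p = 0.0432 with limma). Dio2 was not tested with all arrays and was named after its value was seen. It passed the background filter there only through TCEP replicates 1 and 2, the group in which it was higher (difference 2.79). Its call is therefore not read as a result. Counts at an unadjusted p under 0.05 ran from 368 (spike-in centring) to 1568 (normexp), beside 983, with 1410 under array weights. For members that count was 0 in every setting but 1, without TCEP replicate 3, where Slc7a7 reached it. The median of the other transport genes, -0.03, was 0.013 with no filter on dim probes, where 25 rather than 18 genes enter. On the 18 genes it was 0.0093 with no scaling (10 higher), beside 0.050 over all genes. It was -0.00051 with normexp and -0.08 with array weights (5 higher). The median of the metabolism genes, -0.01, was 0.033 with no scaling (12 of 20 higher), again beside 0.050 over all genes. It ran from -0.097 without TCEP replicate 3 to 0.049 without TCEP replicate 1. Same-numbered arrays gave correlations of deviations across genes of -0.15, -0.10 and 0.23, and unlike-numbered ones ran from -0.33 to 0.37. With 3 arrays a group such correlations cannot settle pairing, and the main fit did not use the numbers as pairing. Under the replicate block 0 genes were called and 850 had an unadjusted p under 0.05, with 0 members among either. In this balanced design the block cannot change a difference, so the median of the members is 0.13 there by construction. All 10 members are well above background. Whether the brightness of a probe affects the size of a difference was not tested.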

Other observations

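Markers of other cell types are given as list means relative to each gene's own mean, over the vehicle and then the TCEP arrays. Intercalated cell markers (5 of 5 measured) lay between 0.07 and 0.21 on vehicle and between -0.18 and -0.10 on TCEP arrays, and distal convoluted and connecting tubule markers (3 of 5) between -0.13 and 0.46 and between -0.27 and -0.17. In both lists 0 genes were called (limma, smallest adjusted p = 0.535). All TCEP arrays lay below all vehicle arrays for 4 of 5 and 2 of 3 of these genes, beside 6.97% of all genes. Slc4a1, an intercalated cell marker, had a higher TCEP mean (difference 0.05). Whether cell numbers differed was not tested. Principal cell markers (6 of 6) lay between -0.26 and 0.30 and between -0.22 and -0.01, thick ascending limb markers (5 of 6) between -0.10 and 0.09 and between -0.09 and 0.11, podocyte markers (5 of 5) between -0.09 and 0.20 and between -0.32 and 0.06, and endothelial markers (6 of 6) between -0.07 and 0.13 and between -0.15 and 0.02. Neutrophil and erythroid markers (4 of 5) lay between -0.64 and 1.30 and between -0.67 and 0.04, lymphocyte markers (4 of 5) between -0.28 and 0.58 and between -0.20 and 0.07, and fat markers (3 of 4) between -0.88 and 0.35 and between -0.24 and 0.51. The highest neutrophil and erythroid, lymphocyte and macrophage means were on vehicle replicate 2, and the highest fat mean was on TCEP replicate 1. Of the 3 fat markers Cidec alone was highest on that array. Adipoq was highest on vehicle replicate 2 and Ucp1 on vehicle replicate 1.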
